A study of Mus musculus with 6 samples.

Results

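The 8 genes described here, Sox2, Sox4, Sox5, Sox6, Sox8, Sox9, Sox10 and Sox11, encode Sox transcription factors known from neural and glial cells. They were chosen by symbol, without use of their values. All 8 were found, among 44804 rows of the expression table that carry a unique gene name. RNA was sequenced from 3 circulating tumor cells (CTCs), tumor cells found in blood, and 3 tumor cells, with 1 of each from the mice named 1157, 1168 and PDGF1. The 2 groups are the CTCs and the tumor cells, and the labels give no strain, genotype, age or treatment for either. Only the CTCs are called single in the source label; the tumor cells, whose titles carry the letters GBM, are counted as single cells in the series text. The mice are separate animals, so the spread within a group includes differences between mice.

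Sox proteins share a DNA-binding domain, the HMG box, that fits into the minor groove of DNA and bends it. They mostly act beside a partner factor bound next to them, and the subfamilies differ in what they do to a target gene. SoxB1 proteins such as Sox2 keep neural stem cells undifferentiated. SoxC proteins, Sox4 and Sox11, are strong activators in immature neurons and progenitors. SoxD proteins, Sox5 and Sox6, have no activation domain of their own and modulate other Sox proteins, and in the oligodendrocyte lineage they hold back differentiation. SoxE proteins, Sox8, Sox9 and Sox10, are glial: Sox9 acts in glial specification, and Sox10 drives oligodendrocyte differentiation with partial help from Sox8. Several of the 8 are used as markers of glioma cells, Sox2 and Sox10 among them.

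Values are FPKM, fragment numbers divided by transcript length and sequencing depth, so they can be compared between genes. All 8 genes stood at 1 FPKM or more in the CTC of mouse 1168 and 7 of 8 in its tumor cell. The CTC of mouse 1157 had 2 at that level, Sox4 and Sox6, and its tumor cell had 1, Sox8. The CTC of mouse PDGF1 had 0, and its tumor cell had 2, Sox5 and Sox11. The share of named protein-coding genes at 1 FPKM or more was 43.0% and 49.8% for the CTC and tumor cell of mouse 1168, 10.3% and 16.0% for mouse 1157, and 4.83% and 10.3% for mouse PDGF1. The 2 cells with the most Sox genes thus held the most genes of any kind. The summed FPKM of the 8 genes, CTC before tumor cell, was 286 and 149 (mouse 1168), 27.1 and 3.502 (mouse 1157), and 1.59 and 4.99 (mouse PDGF1). As a share of the FPKM of named protein-coding genes, the same sums came to 0.0461% and 0.0335%, 0.0221% and 0.0242%, and 0.0285% and 0.0418%.

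The promoters of the 4 genes with the highest FPKM in the CTC of mouse 1168 among those with an entry in the RefSeq table used are shown first, because Sox2, Sox4, Sox11 and Sox8 lead the levels of that cell among these. Of the 8 genes, 6 had an entry; Sox9 and Sox10 had none there. Each line is the 250 bases before the RefSeq start, from RefSeq on GRCm38.p6, 5′ to 3′ on the strand of the gene, at chr3:34649745-34649994 on the plus strand for Sox2, and on the minus strand at chr13:28953700-28953949 for Sox4, chr12:27342719-27342968 for Sox11 and chr17:25570687-25570936 for Sox8. Capitals mark matches, on either strand, to the Sox core ACAAAG, its variant ACAATG, the TATA box TATAAA and the CCAAT box CCAAT.
Sox2: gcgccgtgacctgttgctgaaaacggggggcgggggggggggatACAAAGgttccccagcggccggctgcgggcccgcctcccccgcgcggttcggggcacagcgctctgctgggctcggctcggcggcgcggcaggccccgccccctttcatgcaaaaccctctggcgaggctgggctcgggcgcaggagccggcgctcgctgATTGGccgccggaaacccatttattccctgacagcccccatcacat
Sox4: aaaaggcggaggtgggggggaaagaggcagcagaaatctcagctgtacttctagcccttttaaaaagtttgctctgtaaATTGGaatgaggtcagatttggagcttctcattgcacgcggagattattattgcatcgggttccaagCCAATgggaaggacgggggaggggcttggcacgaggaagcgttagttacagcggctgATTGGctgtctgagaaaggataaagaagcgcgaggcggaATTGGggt
Sox11: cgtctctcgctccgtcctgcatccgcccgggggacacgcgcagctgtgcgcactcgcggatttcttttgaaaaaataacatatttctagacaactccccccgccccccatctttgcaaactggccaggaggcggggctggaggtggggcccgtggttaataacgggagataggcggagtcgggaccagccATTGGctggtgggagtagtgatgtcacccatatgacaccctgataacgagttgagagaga
Sox8: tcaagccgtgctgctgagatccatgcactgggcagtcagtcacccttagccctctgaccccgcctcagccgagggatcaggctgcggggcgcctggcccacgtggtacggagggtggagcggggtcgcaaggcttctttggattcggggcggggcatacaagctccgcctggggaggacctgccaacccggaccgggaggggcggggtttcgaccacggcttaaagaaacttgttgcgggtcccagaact
The Sox2 window held 1 ACAAAG and 1 CCAAT, the Sox4 window 4 CCAAT and the Sox11 window 1 CCAAT, and none of the 4 motifs was in the Sox8 window. Among all 32851 RefSeq windows of the same length, 16.5% held ACAAAG, 10.7% ACAATG, 12.4% TATAAA and 33.8% CCAAT. The windows of Sox2, Sox11 and Sox8 were GC-rich, at 72%, 58% and 65.6% with 27, 17 and 18 CpG sites, against medians of 52.4% and 6 over all windows. Sox4 lay below that GC median at 50.8% and above the CpG median with 11. The GENCODE start of Sox2 and of Sox11 differs from the RefSeq start, so these 2 windows may not border the start used for the expression values, and the last bases of the Sox4 window lie inside the GENCODE transcript.

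The depth and background of the libraries bear on every value. FPKM sums were 727351 and 615548 in the CTC and tumor cell of mouse 1168 and between 46973 and 236427 in the other 4 cells. Named protein-coding genes took 85.4% and 72.2% of that sum in mouse 1168, and between 11.9% and 51.8% elsewhere. Depth was estimated from the steps between low FPKM values of genes with 1 annotated transcript of 600 to 6000 bases. Among those at up to about 5 fragments, 2014 to 3663 a cell, 91.7% to 94.3% lay within 0.1 of a whole number of fragments. If values were spread evenly, 20% would do so. The fit used the values near 1 fragment of the same genes, so part of this closeness is built in. The estimates run from 11.8 M fragments for the tumor cell of mouse 1157 to 56.2 M for that of mouse 1168. Fragments come from RNA amplified in repeated rounds, so they are not independent molecules, and a fragment number shows counting depth only. As background served 1412 receptor genes of smell and pheromone sensing, active in the nose. Their 99th percentile was 0.129 and 1.23 FPKM for the CTC and tumor cell of mouse 1168, 0.775 and 2.03 for those of mouse 1157, and 2.71 and 7.16 for those of mouse PDGF1. Above it, CTC before tumor cell, were 8 and 6 Sox genes (mouse 1168), 3 and 0 (mouse 1157), and 0 and 0 (mouse PDGF1). The share of named protein-coding genes above it, in the same order, was 53.8% and 47.5%, 13.2% and 7.40%, and 2.27% and 1.43%. In mouse PDGF1 no Sox value exceeded background in either cell, and few genes of any kind did.

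The question the design implies is whether CTCs and tumor cells differ in these genes. By limma on log2(FPKM + 1) over the 4165 genes that reached 1 FPKM in 3 or more cells, 0 genes passed an adjusted p of 0.05, a background of 0% of genes called, and 7 had an unadjusted p under 0.05. Of the 8 Sox genes, 4 could enter that fit, Sox4, Sox5, Sox6 and Sox11, and none of the 4 passed (adjusted p = 0.9999 for each, limma). That fit leaves out the pairing by mouse, so differences between mice enter its error. With the mouse as a block in limma, 217 of the 4165 genes had an unadjusted p under 0.05. That is close to the share of 0.05 that such a cutoff passes when no gene differs. With the block, the SE of Sox4 fell from 2.83 to 1.10 (limma adjusted p = 0.966), and no Sox gene passed. The CTC and tumor cell values overlapped for all 8 genes; over the 4165 genes tested, 1.56% had groups that did not overlap. An exact permutation test of 3 cells against 3 cannot go below 0.1, and no Sox gene reached that. It too leaves out the pairing by mouse. The mean difference lay above 0 for 7 of the 8 genes, all but Sox10. Without the CTC of mouse 1168 it lay below 0 for 7, all but Sox6. That setting keeps the tumor cell of mouse 1168, and the median over all 4165 genes also moved, from -0.06 to -1.09. Without both cells of mouse 1168, Sox4 (1.22), Sox6 (1.24), Sox9 (0.35) and Sox10 (0.14) lay above 0. Sox2 (-0.18), Sox5 (-0.14), Sox8 (-0.30) and Sox11 (-0.43) then lay below 0. The median SD of a gene within a group was 1.88 on the log2 scale, so differences of the size given below could be missed with 3 cells a group. In each mouse, 1 cell is set against 1 cell with no replicate, so the differences below describe those libraries and carry no test.

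**Figure D1:**
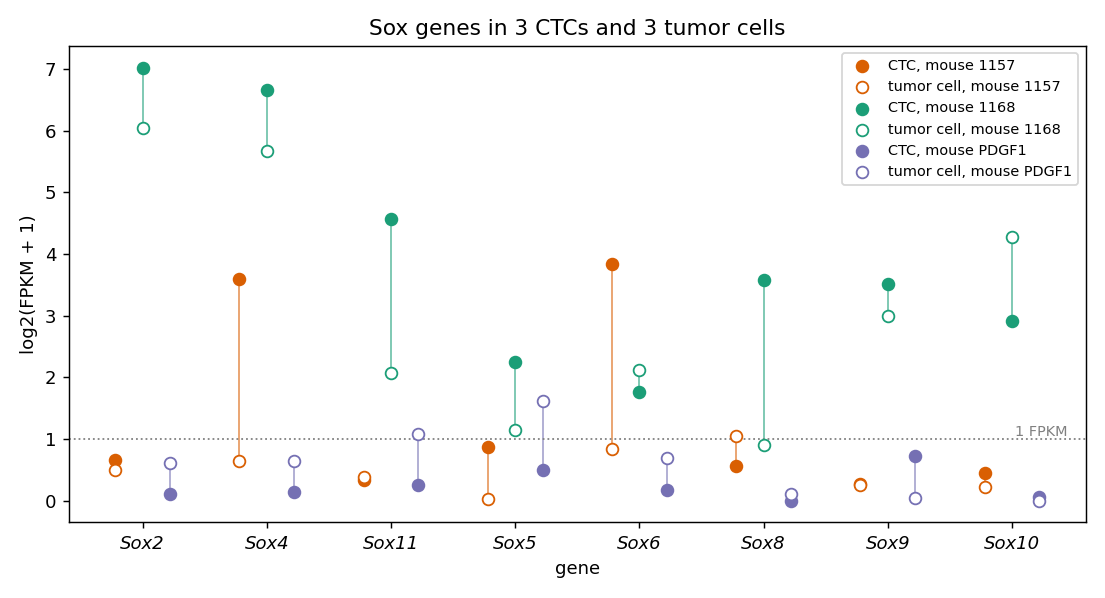
Level of each of the 8 Sox genes as log2(FPKM + 1) on the vertical axis, with CTCs as filled and tumor cells as open circles, 1 color per mouse, and a line joining the 2 cells of a mouse. A cell of mouse 1168 is the highest of the 6 for 7 of the 8 genes, while Sox6 is highest in the CTC of mouse 1157 at 13.3 FPKM, and the groups overlap for every gene.

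Sox2, the SoxB1 factor that maintains neural stem cells and marks stem-like glioma cells, lies on chr3:34650405-34652461 of GRCm38 as a single-exon gene of 2057 bases. Its FPKM in mice 1157, 1168 and PDGF1 was, in that order, 0.570, 129 and 0.0746 among CTCs, and 0.418, 64.8 and 0.520 among tumor cells. Both cells of mouse 1168 were high, at the 96.9th and 95.7th percentile of named protein-coding genes, and the other 4 cells were under 1 FPKM. The high values rest on 7614 fragments for the CTC and 6802 for the tumor cell, the low ones on 29 and 9 (mouse 1157) and 6 and 40 (mouse PDGF1). The CTC of mouse 1168 was at 1.99 times the FPKM of the tumor cell. Taken as CTC minus tumor cell on the log2 scale, the 3 mice gave 0.15, 0.98 and -0.50, and this mean of 0.21 ± 0.74 (SD, n = 3) is smaller than its spread (two-sided exact permutation test of the cells, p = 0.8).

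Sox2 sits inside Sox2ot, a long noncoding RNA gene read from the same strand, at chr3:34104270-34682619. The FPKM of Sox2ot was 1.18, 2.75 and 0.231 among the CTCs of mice 1157, 1168 and PDGF1, against 1.76, 4.29 and 1.30 among the tumor cells. As deposited it was lower in the CTC in 3 of 3 mice, and in mouse 1168 its order was opposite to that of Sox2. The difference between the 2 genes was not tested, and how fragments over the stretch they share were divided is not stated in these sources.

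Sox4 is a SoxC activator of progenitor and tumor cell programs, a single-exon gene of 4795 bases on chr13:28948919-28953713. In mice 1157, 1168 and PDGF1 its FPKM was 11.1, 100.4 and 0.0976 for the CTC, and 0.557, 49.98 and 0.563 for the tumor cell. Unlike Sox2 it was also high in the CTC of mouse 1157, where it ranked at the 97.6th percentile against the 73.0th in the tumor cell of that mouse. That value rests on 1404 CTC fragments against 30 of the tumor cell, and the values of mouse 1168 rest on 14669 and 12945. The differences were 2.96, 0.99 and -0.51, with a limma mean of 1.15 ± 2.83 (SE) and an adjusted p of 0.9999. Gm26735, a noncoding gene on the opposite strand over Sox4, was listed at 0.0626 FPKM in the CTC of mouse PDGF1, and in that cell Sox4 came to 19.4 fragments, not a whole number.

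Sox11, the other SoxC gene, marks immature neurons and is a single-exon gene of 8311 bases on chr12:27334264-27342574. Its FPKM by mouse (1157, 1168, PDGF1) was 0.264, 22.8 and 0.191 for CTCs, and 0.304, 3.22 and 1.10 for tumor cells. Only the CTC of mouse 1168 stood far above the rest, at 7.07 times the FPKM of its tumor cell, on 5873 against 1470 fragments. The order was opposite in mouse PDGF1, where 67 CTC fragments faced 370 of the tumor cell, both below the receptor background. The log2 differences were -0.05, 2.49 and -0.82, and the limma mean was 0.54 ± 1.37 (SE, adjusted p = 0.9999). Sox4 and Sox11, often described as partly redundant, thus had unlike differences in mouse 1168, 0.99 and 2.49, and in mouse 1157, 2.96 and -0.05; whether they differ was not tested. 

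Sox5, a SoxD gene with 14 annotated transcripts on chr6:143828425-144781977, had the lowest peak of the 8 genes. The CTCs of mice 1157, 1168 and PDGF1 had 0.823, 3.74 and 0.409 FPKM, and their tumor cells 0.0143, 1.20 and 2.07. Only the CTC of mouse 1168 was higher than the tumor cell of mouse PDGF1, in which Sox5 had the highest FPKM of the 8 genes. The differences were 0.85, 1.10 and -1.13, with a limma mean of 0.27 ± 0.94 (SE, adjusted p = 0.9999). In the tumor cell of mouse 1157 the value comes to at most 1.19 fragments, taken over the longest coding transcript, so no ratio is given for that mouse.

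Sox6, the other SoxD gene here, has 16 annotated transcripts on chr7:115470872-116038796 and works with Sox5 as a modulator of SoxE proteins. For Sox6 the CTCs of mice 1157, 1168 and PDGF1 had 13.3, 2.39 and 0.128 FPKM, against 0.781, 3.35 and 0.619 for their tumor cells. The highest cell was the CTC of mouse 1157, where Sox6 was the highest of the 8 genes, at the 97.7th percentile and on at most 3104 fragments, and took 49.1% of their summed FPKM. The differences were 3.005, -0.36 and -0.52, so Sox6 was higher in the CTC in 1 of 3 mice (limma mean 0.71 ± 1.51 SE, adjusted p = 0.9999). In the same CTC, Sox2, Sox8, Sox9, Sox10 and Sox11 were all at 0.570 FPKM or less.

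Because Sox6 also acts outside the brain, in red cell precursors among others, markers of blood and vessel cells are given beside that CTC. Red cell and platelet markers summed to 1.09 FPKM there, with 0 of 9 at 1 FPKM or more and Hbb-bs, Hba-a2 and Alas2 listed at 0. Endothelial markers summed to 20.8 FPKM, with 1 of 8 at that level, Vwf at 19.4 FPKM, against 3.76 FPKM in the tumor cell of the mouse. Leukocyte markers came to 13.3 FPKM, of which Laptm5 gave 9.81, with 1 of 9 at 1 FPKM or more. Their part in the Sox6 and Sox4 values was not tested. The same CTC also held far more of the genes every cell uses than its tumor cell, with Actb at 174 against 8.58 FPKM and Eef1a1, an elongation factor, at 1217 against 1.79, though Gapdh was at 9.03 against 7.596.

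Sox8, the SoxE gene that supports Sox10 in oligodendrocytes, lies on chr17:25565892-25570686 with 3 annotated transcripts. By mouse (1157, 1168, PDGF1), the CTC had 0.471, 10.96 and 0 FPKM and the tumor cell 1.06, 0.878 and 0.0817. The CTC of mouse 1168 alone was high, at 12.5 times the FPKM of its tumor cell, the largest ratio among the 8 genes in that mouse. At most 975 fragments against 139 stand behind it. In the CTC of mouse PDGF1, listed at 0, 3 fragments would be worth 0.0248 FPKM over the longest coding transcript and 0.231 over the shortest. On the log2 scale the mice gave -0.49, 2.67 and -0.11, on average 0.69 ± 1.73 (SD, n = 3; exact permutation p = 0.9).

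The antisense gene 2810468N07Rik overlaps the start of Sox8 and was listed above 0 in mouse 1168 only, with 2.85 FPKM for the CTC and 1.504 for the tumor cell. The library kit keeps the strand, but whether the counting used it is not stated in these sources.

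Sox9, which acts in glial specification and in cartilage, is a gene of 3 exons and 4135 transcript bases on chr11:112782224-112787760. In mice 1157, 1168 and PDGF1 the CTC values were 0.203, 10.5 and 0.653 FPKM, and those of the tumor cells 0.195, 7.001 and 0.0246. As deposited, it alone of the 8 genes had the higher FPKM in the CTC in 3 of 3 mice, but rescaling each cell over all rows or over named protein-coding genes turned mouse 1157 to -0.88 and -2.45. The size differed widely: 0.01, 0.52 and 0.69 on the log2 scale, a mean of 0.41 ± 0.35 (SD, n = 3; exact permutation test of the cells, p = 0.5). In mouse 1157 the values rest on 22 and 9 fragments and are all but equal. In mouse PDGF1, 111 CTC fragments faced 4 of the tumor cell, and Sox9 ranked at the 93.6th and 46.9th percentile of its cells, though below the receptor background in both.

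Sox10, the driver of oligodendrocyte differentiation, lies on chr15:79154908-79165240 with 4 annotated transcripts. By mouse (1157, 1168, PDGF1), it had 0.362, 6.54 and 0.0368 FPKM for the CTC, and 0.171, 18.3 and 0 for the tumor cell. Here the tumor cell of mouse 1168 was the highest cell, and the CTC of that mouse had 0.356 times its FPKM, on at most 536 against 2671 fragments. In mouse 1168, Sox10 was the only one of the 8 genes lower in the CTC by at least 1. Its log2 differences of 0.22, -1.36 and 0.05 averaged -0.36 ± 0.87 (SD, n = 3; exact permutation p = 0.9). In the tumor cell of mouse PDGF1, listed at 0, 3 fragments would be worth 0.0281 FPKM over the longest coding transcript and 0.109 over the shortest.

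The SoxE genes together thus came to nearly the same sum in both cells of mouse 1168, 27.95 FPKM for the CTC and 26.2 for the tumor cell, with a different make-up. Sox8 gave 10.96 of it for the CTC and 0.878 for the tumor cell, and Sox10 gave 6.54 and 18.3. The SoxC pair took 43.0% of the FPKM of the 8 genes in its CTC and 35.8% in its tumor cell, and Sox2 alone took 45.1% and 43.6%. The SoxD pair took 2.14% and 3.06% in mouse 1168, 52.1% and 22.7% for the CTC and tumor cell of mouse 1157, and 33.7% and 54.0% for mouse PDGF1. These shares describe 1 cell each.

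Counting only genes that reached 1 FPKM in either cell of the mouse, 8 Sox genes were measured in mouse 1168. Of these, 3 stood higher in the CTC by a log2 difference of 1 or more (Sox5, Sox8 and Sox11), where 22.7% of all 12396 measured genes were, and 1 was lower, where 24.9% were. Their median difference was 0.99, against 0.04 over all measured genes. The 3 became 2, without Sox5, after rescaling over named protein-coding genes or with a pseudocount of 5. Under that rescaling, 2033 of the 12396 genes were higher and 4396 lower. Sox8 reached 1 FPKM only in the CTC of that mouse, at 10.96 against 0.878, so it had to be higher there. In mouse 1157, 3 Sox genes were measured and 2 were higher (Sox4 and Sox6), beside 29.0% of 5961 genes, with 0 lower, beside 37.1%. Each of these 3 reached 1 FPKM only in the cell where it was higher, so their count shows no more than those values. In mouse PDGF1, 2 were measured, 0 were higher, beside 23.7% of 4042 genes, and 1 was lower (Sox5), beside 59.9%. Both of these, Sox5 and Sox11, reached 1 FPKM only in the tumor cell and lay below the receptor background, so the count is no support for a direction.

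**Figure D2:**
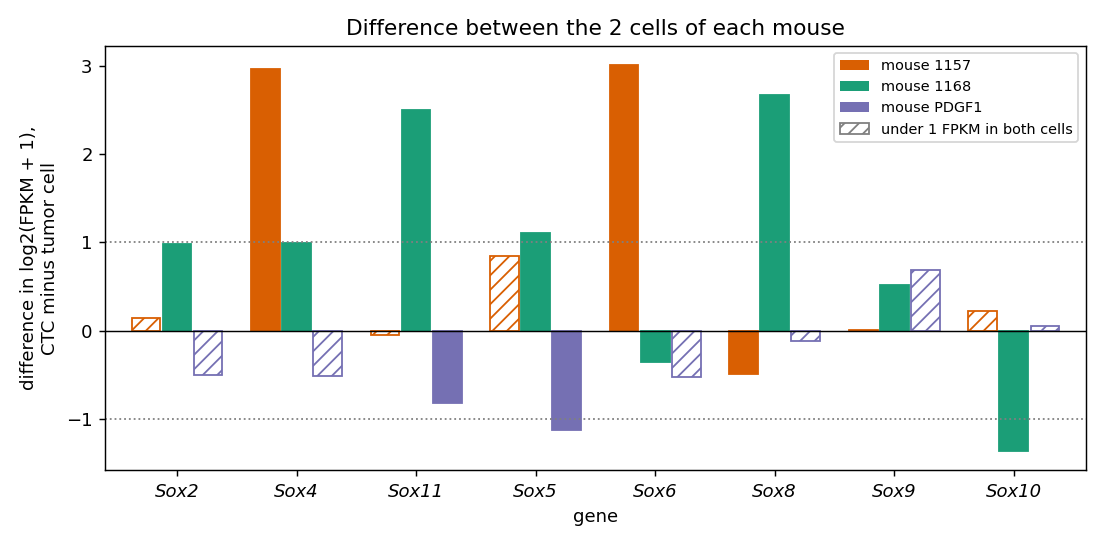
Difference in log2(FPKM + 1), CTC minus tumor cell, on the vertical axis for each of the 8 Sox genes, 1 bar per mouse, with hatched bars where both cells were under 1 FPKM and dotted lines at a size of 1. Sox8 and Sox11 reach 2.67 and 2.49 in mouse 1168 and Sox4 and Sox6 reach 2.96 and 3.005 in mouse 1157. No filled bar points up in mouse PDGF1, where the genes with filled bars reached 1 FPKM only in the tumor cell.

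The sizes of the 8 differences within mouse 1168 changed with how the 2 cells are scaled, while each kept its direction. Each rescaling divides all values of a cell by the same number, so it could hardly change the order of the genes. With each cell rescaled over all rows, the median of all measured genes moved from 0.04 to -0.17, and with rescaling over named protein-coding genes to -0.40. Sox8 stayed at 2.73 and 2.65 and Sox11 at 2.37 and 2.19 under the 2 rescalings. Sox10 was lower under both, at -1.62 and -1.88. Sox5 went from 1.10 to 1.06 and 0.92, under a size of 1, Sox6 from -0.36 to -0.59 and -0.81, Sox2 to 0.75 and 0.51, Sox4 to 0.76 and 0.52, and Sox9 to 0.31 and 0.09, and all of these but Sox6 were still higher in the CTC. In mouse 1157 the tumor cell had the lower FPKM sum, 80273 against 236427, and the lower share in named protein-coding genes, 18.0% against 51.8%, and the same rescalings moved the median of all measured genes from -0.62 to -2.43 and -4.11. Sox4 there went to 2.59 and 1.21 and Sox6 to 2.42 and 0.99, still higher in the CTC, while Sox2 turned from 0.15 to -0.86 and -2.40 and Sox10 from 0.22 to -0.30 and -1.69.

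**Figure D3:**
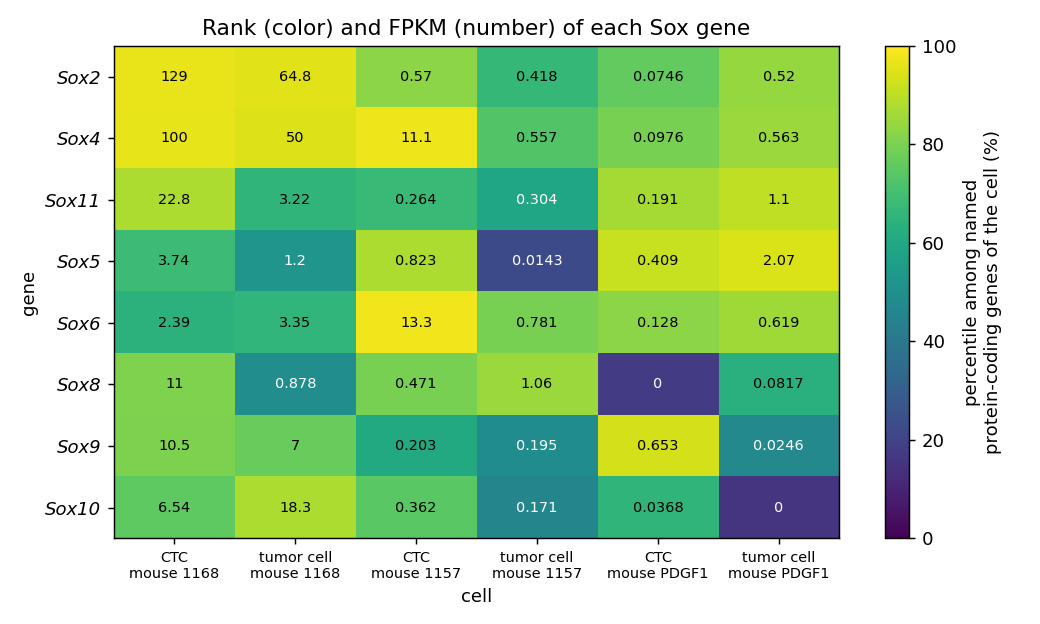
Percentile of each Sox gene among named protein-coding genes of the same cell as color, from 0 to 100%, with the FPKM written in each square, genes in rows and cells in columns. Sox2 and Sox4 are above the 94th percentile in both cells of mouse 1168, and Sox4 and Sox6 stand at 97.6 and 97.7% in the CTC of mouse 1157.

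Ranked by mean FPKM, Sox2 and Sox4 came first in both groups, at 43.3 ± 74.4 and 37.2 ± 55.0 in CTCs and 21.9 ± 37.1 and 17.0 ± 28.5 in tumor cells (SD, n = 3). Sox11 followed in CTCs at 7.74 ± 13.0 and Sox6 at 5.27 ± 7.04. Below them in CTCs came Sox8 at 3.81, given without SD because 1 CTC is listed at 0, Sox9 at 3.77 ± 5.79, Sox10 at 2.31 ± 3.66 and Sox5 at 1.66 ± 1.82. In tumor cells Sox10 followed Sox4 at 6.17, without SD for the same reason, before Sox9 at 2.41 ± 3.98 and Sox6 at 1.58 ± 1.53. Sox11 at 1.54 ± 1.51, Sox5 at 1.10 ± 1.03 and Sox8 at 0.674 ± 0.521 closed that order. Neighbors with an SD in either order did not differ beyond it. Ranks within cells give another order: Sox2 was first of the 8 genes in both cells of mouse 1168 only, Sox6 and Sox8 were first in the CTC and tumor cell of mouse 1157, and Sox9 and Sox5 in those of mouse PDGF1.

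Markers of glial cells had far higher FPKM in both cells of mouse 1168 than in the other 4 cells, which are likewise labelled CTC or tumor cell. Oligodendrocyte progenitor markers summed to 451 FPKM for the CTC and 198 for the tumor cell, with 8 of 9 at 1 FPKM or more in each. In the other 4 cells that sum lay between 0.466 and 11.1 FPKM, with 4 of 9 at 1 FPKM or more in each cell of mouse 1157, and 0 and 1 of 9 for the CTC and tumor cell of mouse PDGF1. Olig2, Nkx2-2 and Bcan were among the 4 in both cells of mouse 1157, at 1.26 to 2.17 FPKM. In the tumor cell of that mouse all 4, at 1.04 to 1.58 FPKM, lay below the receptor background of 2.03. In its CTC the same 3 genes lay above the background of 0.775. Cspg5, the 1 in the tumor cell of mouse PDGF1, was at 1.15 FPKM, below the background of 7.16. Astrocyte markers summed to 772 and 412 FPKM in mouse 1168, mostly Aldoc in the CTC and S100b in the tumor cell, while Gfap, the defining astrocyte filament, was listed at 0 and 0.609. In the other 4 cells Gfap was at 0.143 FPKM or less, and the astrocyte sum was between 3.49 and 11.3 FPKM.

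The tumor cell of mouse 1168 also carried markers of other cell types. Microglia and macrophage markers summed to 2546 FPKM in it, with 13 of 15 at 1 FPKM or more and Lyz2 at 1202, against 245 FPKM and 6 of 15 in the CTC, where Aif1, C1qa and Tmem119 were listed at 0. Leukocyte markers summed to 308 against 5.18 FPKM, and pericyte and fibroblast markers to 54.8 against 2.72. Mature oligodendrocyte markers came to 51.5 FPKM in the tumor cell and 19.4 in the CTC, with 3 of 7 at 1 FPKM or more in each and Mog listed at 0 in both. In the CTC, red cell and platelet markers summed to 68.3 against 6.26 FPKM, of which Itga2b, a platelet integrin, gave 68.0, and the hemoglobin genes Hba-a1 and Hba-a2 were listed at 0. The part of these markers in the Sox differences of mouse 1168 was not tested.

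Other Sox genes were mostly low. Of 12 further family members, 6 reached 1 FPKM in some cell. Sox3, a close relative of Sox2 in neural progenitors, had 5.15 FPKM in the CTC of mouse 1168 and 0.455 in its tumor cell, and at 0.470 FPKM or less in the other 4 cells. Sox21, which counteracts SoxB1 proteins, was at 1.38 and 2.08 FPKM in the 2 cells of mouse 1168, and Sox12, the third SoxC gene, at 1.69 and 1.21. Sox17, known from endoderm and vessel endothelium, was highest in mouse 1157, at 11.0 FPKM for the CTC and 8.99 for the tumor cell, and at 1.59 FPKM or less in the other 4 cells. In mouse 1157 it thus exceeded Sox2 in both cells. Sox13 reached 1.51 FPKM in the tumor cell of mouse 1157, and Sox1 reached 1.27 in the tumor cell of mouse PDGF1. Of the 3 measured in mouse 1168, 1 was higher in the CTC (Sox3) and 0 lower, beside 22.7% and 24.9% of all genes. Their median was 0.28 against 0.04 over all genes. Sox3 reached 1 FPKM only in that CTC, so it had to be higher there.

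Partner factors bind beside Sox proteins or act with them, and 13 of the 14 listed were measured in mouse 1168. The CTC was higher by 1 or more for 4 (Olig2, Nkx2-2, Pou3f3 and Nfia) and lower for 1, Egr2, beside 22.7% and 24.9% of all genes, with a median of 0.79 against 0.04 over all genes. Nkx2-2, at 27.2 FPKM for the CTC and 0.752 for the tumor cell, and Egr2 reached 1 FPKM only in the cell where they were higher. The filter thus set their direction. After rescaling over named protein-coding genes the counts were 3 higher and 4 lower, and at a size of 2 they were 2 and 0. Under that rescaling, 2033 of the 12396 genes measured as deposited were higher and 4396 lower. No share over all genes was counted at a size of 2. Olig1, an oligodendrocyte lineage factor, was the most abundant at 199 FPKM for the CTC and 138 for the tumor cell. Among the POU factors, classical partners of Sox2 and Sox11, Pou3f3 was at 15.5 against 2.98 FPKM and Pou3f2 at 3.17 against 1.33. A repressor and an effector of Wnt signaling stood higher in the tumor cell by less than 1: Zeb2 at 38.4 against 20.4 FPKM and Ctnnb1, beta-catenin, at 50.1 against 34.6. Egr2, an effector of Sox10 in myelinating cells, was at 0.804 for the CTC and 3.05 for the tumor cell. In mouse 1157, Pou3f1 was at 10.0003 FPKM in the CTC against 0.843, while Zeb2 and Ctnnb1 were lower in the CTC, at 1.01 against 6.11 and 1.31 against 11.1.

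Listed targets of Sox2 in neural stem cells, without Sox2 itself, numbered 12, of which 7 were measured in mouse 1168, 4 higher in the CTC (Nes, Fabp7, Egfr and Notch1) and 1 lower, beside 22.7% and 24.9% of all genes, with a median of 1.15. After rescaling over named protein-coding genes they were 3 and 3, beside 2033 higher and 4396 lower of the 12396 genes measured as deposited. With a pseudocount of 5 the higher ones were 2, and at a size of 2 none passed in either direction. Shares over all genes were not counted at these last settings. Egfr reached 1 FPKM only in the CTC, at 1.61 against 0.119, so it had to be higher there. Fabp7, the brain lipid-binding protein of radial glia, stood at 2346 FPKM for the CTC and 1059 for the tumor cell, and Notch1 at 4.15 and 1.30. Vim, an intermediate filament, was at 586 and 870 FPKM, and Hmga2, a chromatin protein, was the lower one, at 6.06 and 21.02. In the other 4 cells Fabp7 was between 1.17 and 2.53 FPKM. Listed targets thus differed in direction among themselves within the cell pair in which Sox2 was high.

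Of 9 listed targets of Sox4 and Sox11, 8 were found and 5 measured in mouse 1168, with 2 higher and 3 lower in the CTC, beside 22.7% and 24.9% of all genes. The 3 lower reached 1 FPKM in the tumor cell only, and so had to be lower in the CTC. Map2, a microtubule protein of neurons, was at 64.4 against 12.5 FPKM and Ezh2, a histone methyltransferase, at 40.9 against 14.0. Tead2, a Hippo pathway factor, was at 0.303 against 3.93 FPKM, Stmn2 at 0.0717 against 3.66 and Klf4 at 0.530 against 2.70. In mouse 1157, where Sox4 was at 11.1 FPKM for the CTC and 0.557 for the tumor cell, Ezh2 was at 0.179 and 4.17. Dcx, an immature neuron protein, had 4.28 FPKM in the CTC of mouse PDGF1, where Sox4 and Sox11 were at 0.0976 and 0.191.

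Genes of oligodendrocyte lineage cells that SoxE proteins control went both ways in mouse 1168. Of 11 listed besides Sox10, 6 were measured there, with 2 higher and 3 lower in the CTC, beside 22.7% and 24.9% of all genes, and a median of -1.03. The 2 higher were the progenitor genes Cspg4, at 17.5 against 1.71 FPKM, and Pdgfra, at 5.28 against 1.42. The 3 lower were Cldn11, a tight junction protein of myelin, at 7.73 against 31.1 FPKM, Mbp, myelin basic protein, at 1.35 against 6.87 and S100b at 108 against 364. Cnp, an enzyme of myelinating cells, was at 9.79 against 12.5 FPKM. Cldn11, Mbp and Cnp are also among the mature oligodendrocyte markers given above, so the 2 readings share their genes. Of 11 listed targets of Sox9, 3 were measured in mouse 1168 and all 3 were higher in the CTC, beside 22.7% of all genes, with a median of 1.37: Fabp7, the glutamate transporter Slc1a3 at 49.3 against 8.94 FPKM, and Nfia, a glial transcription factor, at 17.2 against 6.07. After rescaling over named protein-coding genes 1 was higher and 1 lower, and at a size of 2 the higher one was 1. Under that rescaling, 2033 of the 12396 genes measured as deposited in mouse 1168 were higher and 4396 lower. The cartilage target Col2a1 was at 0.00675 and 0.117 FPKM there, and highest in the tumor cell of mouse 1157, at 5.31 FPKM.

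Fewer listed genes could be read in the other mice. In mouse 1157, 9 partner factors were measured, 3 higher and 3 lower in the CTC, with a median of 0.33, and 0 of the 11 SoxE targets reached 1 FPKM in either cell. Higher and lower in that CTC were 0 and 2 of 4 measured targets of Sox2, 1 and 2 of 5 of Sox4 and Sox11, and 0 and 1 of 3 of Sox9. The counts of mouse 1157 stand beside 29.0% higher and 37.1% lower among all genes measured there. Mouse PDGF1 had 0 and 1 of 2 for Sox2, 1 and 2 of 4 for Sox4 and Sox11, 0 and 1 of 1 for the SoxE proteins and 0 and 1 of 2 for Sox9. Among all genes measured in mouse PDGF1, 23.7% were higher and 59.9% lower. Where a listed gene reached 1 FPKM in only 1 cell of a mouse, the filter set its direction. In mouse PDGF1, 1 partner factor was measured, Nfib, at 0.183 FPKM for the CTC and 1.17 for the tumor cell. Across all 6 cells, limma could test 9 partner factors, 3 targets of Sox2, 4 of Sox4 and Sox11, 1 of the SoxE proteins and 2 of Sox9, and 0 passed in either direction (adjusted p = 0.9999 for each). Nfia and Fabp7 stand in 2 of the lists each, so the counts of those lists are not separate.

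**Figure D4:**
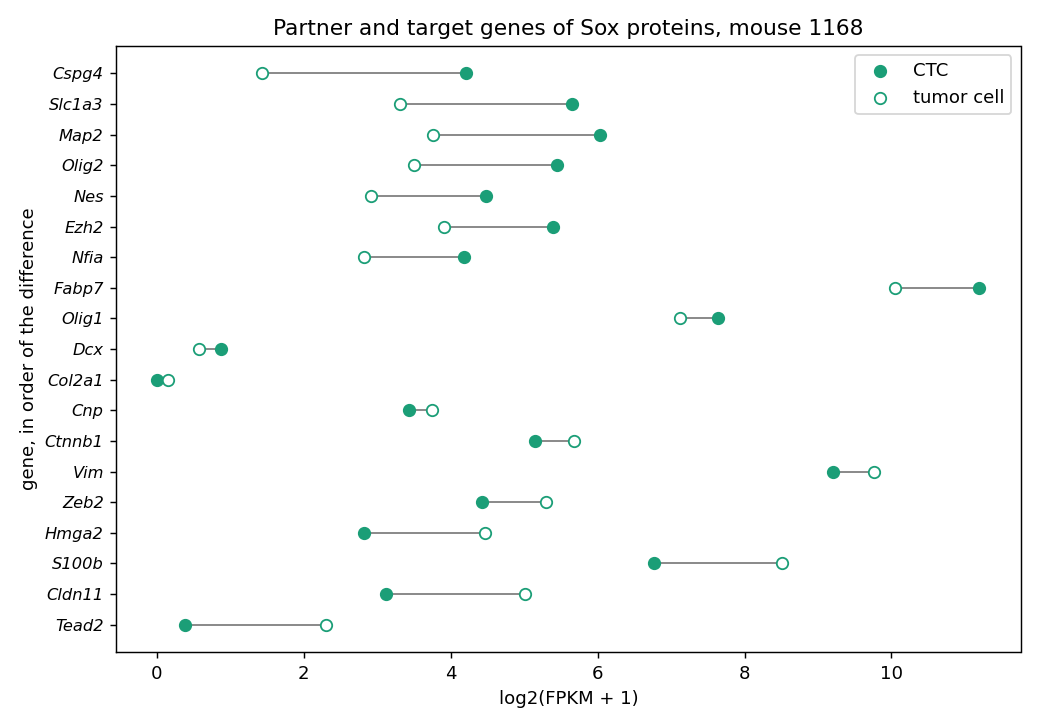
Partner and target genes of Sox proteins in the 2 cells of mouse 1168, the 4 with the highest FPKM in any cell from each list, as log2(FPKM + 1) on the horizontal axis, with the CTC as filled and the tumor cell as open circles. Tead2 is at the bottom, at 0.303 against 3.93 FPKM, and Cspg4 is among the genes furthest to the CTC side, at 17.5 against 1.71.

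Genes with the most similar levels over the 6 cells were found by the Euclidean distance of log2(FPKM + 1) among 18866 named protein-coding genes. Nearest to Sox2 were Exosc9 (distance 0.42), Mrpl13 and Sfpq, to Sox4 Atxn10 (0.49), Eif3f and Rab14, and to Sox11 Atic (0.55), Lemd2 and Ubn2. Nearest to Sox5 were Golga3 (0.52), Adgrb3 and Zdhhc21, and to Sox6 Hdac1 (0.90), Atg4b and Cep41. For the SoxE genes they were Bmp7 (0.38), Trp53bp1 and Ndrg1 for Sox8, Pgm3 (0.35), Tmem263 and Fbxo8 for Sox9, and Asnsd1 (0.16), Cant1 and Slmap for Sox10. No Sox gene was among the 3 nearest of another, and with 6 cells that share mice and depth such likeness is a description. Bmp7, a secreted growth factor, shows the pattern of Sox8, with 13.3 FPKM in the CTC of mouse 1168, 1.03 in its tumor cell and 0.946 or less in the other 4 cells.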

How the data were processed

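RNA of 6 cells was amplified and sequenced, per the labels' protocols. The authors deposited FPKM for 45038 rows. Per the submitters' processing notes, the tools were STAR 2.4.2a and Cufflinks 2.2.1, and the build GRCm38. How the reads of overlapping or similar genes were assigned is not stated there. Rows named as dates (27) or with a repeated name (211) were left out, which left 44804; 41450 matched GENCODE mouse release 21, with 18866 named protein-coding genes and 1412 receptor genes. The Sox genes, gene lists and tests were chosen with earlier results of these data known.

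CTCs and tumor cells, 3 each, were compared with limma 3.58.1 (R 4.3.3), with its trend of variance on mean, on log2(FPKM + 1). Genes entered if they reached 1 FPKM in 3 or more cells. The test was two-sided, with Benjamini-Hochberg adjustment over all genes tested and a threshold of 0.05. A fold on this scale understates the change of low genes. Sox2, Sox8, Sox9 and Sox10 reached 1 FPKM in 2 cells only. For all 8 genes an exact permutation test, two-sided, was run on the same values, without regard to the mouse. An SD beside a permutation p is that of the 3 differences within mice. An SE given after ± comes from the limma fit without the mouse, so these spreads are not alike between genes. Fragments were recovered as FPKM times the transcript length, less an offset fitted per cell, times the fitted number of mapped fragments. Genes with several transcripts have only an upper limit, from the longest. All else was done in Python 3.11.15 (scipy 1.17.1, matplotlib 3.10.9, pandas 2.3.3, numpy 2.4.6). The limma step was also tested on simulated data, with changes of 2 or 4 on the log2 scale. At an SD of 0.3, 100% of either size were recovered, with 7 false calls. At an SD of 1.88, the median of these data, 2% and 10% were recovered, with 0 false calls. At the spread of these data the test thus missed most changes, and the lack of calls does not show that the groups are alike.

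The labels give both cells of a mouse the same number, so the mouse pairs them. After group means were removed, the correlation of the 2 cells over genes was 0.178 (mouse 1157), 0.689 (mouse 1168) and 0.428 (mouse PDGF1). Named genes were the 8 Sox genes, other Sox genes at 1 FPKM in any cell, up to 4 genes of highest FPKM from each list, genes overlapping a Sox gene, and the 3 nearest genes of each. Egr2, Nkx2-2, Egfr, Nfib, Pou3f1, Pou3f2, Pou3f3, Bcan, Cnp, Notch1, Stmn2, Klf4, Pdgfra, Mbp and the single marker genes beyond that rule were chosen after their values were seen. A few listed genes are not reported here and were left out of the list counts and sums.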

Additional observations from a re-analysis of the deposited data

How the results depend on the processing

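With the mouse as a replicate block, 1 gene passed the threshold in limma (adjusted p = 0.00906), not a Sox gene, and for Sox4 the difference of 1.15 kept an adjusted p of 0.966; the block changed no other call. With each cell rescaled over named protein-coding genes, 1 gene passed, and in the other limma fits tried (pseudocounts, filters, scalings, cells left out) 0 did. Sox4, Sox5, Sox6 and Sox11 did not pass in any of these fits in which they were tested; Sox2, Sox8, Sox9 and Sox10 were tested by limma only with no filter and did not pass there. The direction of the mean difference did not hold for several genes. With a pseudocount of 0.1, Sox2 turned to -0.15. With rescaling over all rows, Sox2 turned to -0.74, Sox8 to -0.30 and Sox11 to -0.32. With rescaling over named protein-coding genes, Sox2 turned to -1.18, Sox6 to -0.32, Sox8 to -1.42 and Sox11 to -0.67. Leaving out cells or mice gave ranges of -2.01 to 2.04 for Sox2, -0.45 to 2.82 for Sox4, -0.25 to 0.98 for Sox5, -0.44 to 1.58 for Sox6, -0.41 to 1.38 for Sox8, -0.60 to 1.36 for Sox9, -1.25 to 1.02 for Sox10 and -0.88 to 1.28 for Sox11. Without the CTC of mouse 1168, the means of 7 of these, all but Sox6, were below 0, with the median over all genes tested at -1.09. Without both cells of that mouse, the means of Sox2, Sox5, Sox8 and Sox11 were below 0. Counts within mice moved too. Lower in the CTC of mouse 1157 was 1 Sox gene at a pseudocount of 0.1 and 5 after rescaling over named genes. Under that rescaling, 4174 of the 5961 genes measured there as deposited were also lower by 1 or more. Lower in mouse 1168 were 0 at a size of 2. In mouse PDGF1, after that rescaling 2 were higher and 6 lower. Of the 4042 genes measured there as deposited, 1227 were then higher and 2503 lower, so most genes of any kind were lower. Lower in mouse PDGF1 were 2 Sox genes at a pseudocount of 0.1 and 0 at a pseudocount of 5, a size of 2 or measured above receptor genes. No share over all genes was counted at the settings other than rescaling. At 0.1 FPKM, 8 and 7 Sox genes were detected in the CTC and tumor cell of mouse 1157 and 4 and 5 in mouse PDGF1. At 5 FPKM, 0 were in the tumor cells of mice 1157 and PDGF1 and 4 in that of mouse 1168. Above receptor genes 0 were in the tumor cells of mice 1157 and PDGF1, beside 7.40% and 1.43% of named protein-coding genes. After rescaling, 8 and 7 were detected in mouse 1157 and 7 and 7 in mouse PDGF1. Named genes held only 11.9% of an FPKM sum of 46973 in the CTC of mouse PDGF1. Rescaling thus raised its values many-fold, and a value of 1 then stands for far less than 1 FPKM as deposited. The share of all named genes was not counted at 0.1 FPKM, at 5 FPKM or after rescaling. Those counts therefore show nothing particular to the Sox genes. Apart from these scalings and the number of cells used, the cause was not tested. Depth limits the low values: those of Sox2 under 1 FPKM rest on 6 to 40 fragments, which limits any order among low genes.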
